A study of Mus musculus with 12 samples.

Results

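The 10 genes described here encode proteins of cardiac muscle, which in mice surrounds the pulmonary veins inside the lung as tissue of atrial type. They were taken by gene symbol (Myh6, Myh7, Myl7, Myl4, Tnnt2, Tnni3, Nppa, Actc1, Sln and Ryr2), and each symbol matched 1 of the 55487 genes of the count table. All 10 passed the filter on low counts, which left 45828 genes for testing. RNA-Seq was done on whole lungs of 12 miR-30a-/- mice at postnatal day (PND) 21. In every animal, control or exposed, the whole miR-30a gene had been deleted with CRISPR/Cas9 on the C57BL/6J background, so no comparison between genotypes is made. Hyperoxia was 95% inspired oxygen (FiO2) from PND 1 to PND 5, and the controls stayed in room air. There were 3 lungs in each of 4 groups, which were room air males, room air females, hyperoxia males and hyperoxia females. Pups of several litters had been mixed and redistributed before exposure, and the lungs had been flushed with PBS through the right ventricle before freezing.

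Cardiac muscle around the pulmonary veins is continuous with the left atrium and contracts with it. Its thick filaments are built of a myosin heavy chain (Myh6 encodes the fast alpha chain and Myh7 the slow beta chain) with the atrial light chains Myl7 and Myl4. The thin filaments are built of cardiac actin (Actc1) and carry the troponins T (Tnnt2) and I (Tnni3). Contraction starts when calcium leaves the sarcoplasmic reticulum through the ryanodine receptor Ryr2, and ends when a calcium pump that is inhibited by sarcolipin (Sln) takes it back. Nppa encodes atrial natriuretic peptide, a hormone of atrial myocytes. Some of these genes are used outside the heart as well, Ryr2 in vascular smooth muscle and Myh7, Sln and Actc1 in skeletal muscle.

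Positions are those of GENCODE release M21 on GRCm38. The heavy chain genes lie next to each other on the minus strand of chromosome 14, Myh6 at chr14:54941921-54966927 and Myh7 at chr14:54970684-54994626. The light chain genes are both on chromosome 11, Myl7 at chr11:5896637-5898782 (-) and Myl4 at chr11:104550663-104595753 (+). Tnnt2 is at chr1:135836354-135852260 (+), Tnni3 at chr7:4518305-4524229 (-) and Actc1 at chr2:114047282-114053548 (-). Ryr2 is at chr13:11553102-12106945 (-), Sln at chr9:53850164-53854560 (+) and Nppa at chr4:148000722-148002079 (+). Counts cover the exons of each gene, from 590 bases for Myl7 to 28790 for Ryr2.

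The sequences shown first are those of the deleted microRNA and of the microRNAs that lie within the genes Myh6 and Myh7. The mature sequences are from RefSeq (GRCm38.p6), written 5′ to 3′ with the seed (bases 2 to 8) in capitals. The first is transcribed from chr1:23272274-23272295 (+), the second from chr14:54949072-54949093 (-) and the third from chr14:54975710-54975731 (-).
mmu-miR-30a-5p: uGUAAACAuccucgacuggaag
mmu-miR-208a-3p: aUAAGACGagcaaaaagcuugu
mmu-miR-208b-3p: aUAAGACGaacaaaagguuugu
The miR-208 sequences share 1 seed, which differs from that of miR-30a-5p. The miR-208a hairpin lies inside Myh6 and the miR-208b hairpin inside Myh7, on the strand of the host gene and outside its annotated exons. The hairpin gene Mir30a had 0 counts in all 12 lungs, a count that allows up to 3. Mir208a had 2 to 10 counts in males and 4 to 15 in females, and Mir208b had 3 to 7 in males and 2 to 10 in females, too few to compare the groups.

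The next sequences are those just upstream of Myl7, Actc1 and Myh6, shown because these genes had the largest estimated differences between the female groups. The RefSeq promoter table (GRCm38.p6) held windows for 9 of the 10 genes, all but Sln. From each window the 250 bases before the transcription start were searched on both strands for the CArG box (the site of serum response factor), the MEF2 site, GATAA (a core read by GATA factors) and TATAAA. None of the matches overlapped another motif. Matches are in capitals, and bases that GENCODE assigns to an exon of the gene are left out. The windows are chr11:5898783-5899032 (-) for Myl7, chr2:114052888-114053125 (-) for Actc1 and chr14:54966642-54966857 (-) for Myh6.
Myl7: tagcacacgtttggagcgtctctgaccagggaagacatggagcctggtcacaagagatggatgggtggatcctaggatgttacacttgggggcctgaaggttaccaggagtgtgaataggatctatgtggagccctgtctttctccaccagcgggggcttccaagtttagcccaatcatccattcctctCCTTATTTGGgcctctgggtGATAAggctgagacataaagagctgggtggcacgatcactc
Actc1: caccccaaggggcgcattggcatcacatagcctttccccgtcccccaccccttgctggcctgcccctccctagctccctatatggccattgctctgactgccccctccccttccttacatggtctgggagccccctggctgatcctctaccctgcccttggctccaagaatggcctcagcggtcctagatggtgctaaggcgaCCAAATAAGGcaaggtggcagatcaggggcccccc
Myh6: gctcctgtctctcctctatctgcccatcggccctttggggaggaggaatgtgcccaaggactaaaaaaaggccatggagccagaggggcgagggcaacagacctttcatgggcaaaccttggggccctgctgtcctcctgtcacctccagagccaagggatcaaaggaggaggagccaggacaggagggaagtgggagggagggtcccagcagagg
A CArG box was found before Myl7, with its first base at -61 from the start, and before Actc1, at -47. In all, 2 of the 9 genes had one, and 1.47% of the 32851 mouse promoter windows of the same length did. GATAA was found before 3 of the 9 genes, at -41 in Myl7, at -245 and -166 in Tnnt2 and at -121 and -75 in Nppa, and in 22.6% of all windows. TATAAA was found before Nppa (at -9), 1 of the 9 genes, and in 12.4% of all windows. The MEF2 site was found before 0 of the 9 genes and in 2.92% of all windows. These are matches of letters and were not tested against binding.

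Depth ran from 8763033 to 16741694 counts per lung. Xist, which is transcribed from the inactive X, had 148 to 210 counts in males and 8834 to 27296 in females, and the Y-linked Ddx3y had 270 to 715 in males and 0 in females. In 1 lung, room air male replicate 1, the 24 skeletal muscle genes summed to 3489 CPM (counts scaled to the normalized library size), while the other 11 lungs had 419 to 629 CPM. In that lung Acta1 (skeletal actin) was at 729 CPM and Mylpf (fast skeletal light chain) at 76.1 CPM, against 4.77 to 7.48 CPM and 5.46 to 8.78 CPM in the other 11. Estimates in males that this lung moved by over 1.5 times are therefore given with and without it. Reads on 1490 olfactory and vomeronasal receptor genes, which the lung should hardly express, made up 0.410% to 0.945% of the counts of a lung and served to estimate background reads per kilobase of exon. In single lungs the estimate exceeded all counts of some further cardiac genes (up to 189%), so the background shares of single genes are rough.

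All 10 genes had counts in all 12 lungs, but at low levels and with very different margins over that background, and Sln and Nppa were at or near background in single lungs. Per kilobase of exon and over the 12 lungs, the mean level was highest for Actc1, at 22.99 ± 17.6 CPM per kb (SD, n = 12), then for Myl7 (14.0 ± 7.91), Myh6 (8.94 ± 3.58), Tnni3 (7.77 ± 1.31) and Myh7 (5.21 ± 0.43). Myl4 (4.32 ± 0.80 CPM per kb), Tnnt2 (3.90 ± 0.67), Sln (3.64 ± 4.63), Ryr2 (3.13 ± 0.35) and Nppa (2.11 ± 0.36) followed. Without room air male replicate 1 the mean of Sln was 2.33 ± 1.00 CPM per kb (SD, n = 11), below Ryr2 at 3.09 ± 0.34. Over the 12 lungs the ranges of mean ± SD of neighbours in this order overlapped, except between Tnni3 and Myh7 and between Ryr2 and Nppa. Read density exceeded the receptor density of the same lung by a median of 13.3 times for Actc1, 8.64 times for Myl7 and 6.64 times for Myh6. For Ryr2, whose exons span 28790 bases, the median was 2.56 times. Sln and Nppa came closest to background, with densities under 2 times that of the receptors in 7 and 8 of the 12 lungs.

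**Figure D1:**
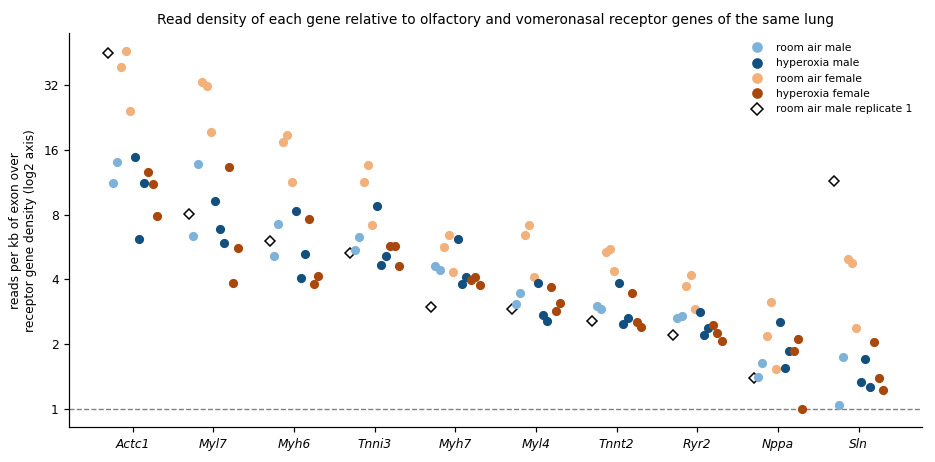
Reads per kilobase of exon of each gene divided by the median density on olfactory and vomeronasal receptor genes of the same lung (log2 axis), with 1 point for each of 12 lungs and genes ordered by their median. The dashed line marks equal density. Actc1, Myl7 and Myh6 lie highest, and Sln and Nppa reach the line in single lungs (lowest values 1.04 and 1.00).

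The first comparison was hyperoxia against room air. In females, Myh6, Myl7 and Actc1 had about 2 to 3 times lower mean levels after hyperoxia. In males the group means of Myh6 and Myl7 were closer, and those of Actc1 were as far apart with all lungs (54.7 and 19.2 CPM) but closer without room air male replicate 1. None of the 10 genes passed the call of adjusted p under 0.05 with a fold change over 1.5. With edgeR, 0 of 10 were called over both sexes, where 0.0415% of all genes tested were called, 0 of 10 in males (0% of all genes) and 0 of 10 in females (0.00218% of all genes). At an unadjusted p under 0.05 the count was 6 of 10 over both sexes (5.2% of all genes), 1 in males (2.7%) and 5 in females (12.6%). Leaving out room air male replicate 1 gave 5 of 10 over both sexes, 0 in males and 7 in females. Of all genes it gave 2874, 866 and 5717. DESeq2, run as an alternative, called Myh6 and Myl7 over both sexes (of 40 genes called in all) and in females (of 44), and called 0 of 10 in males. Over all genes, edgeR called 19 over both sexes, 0 in males (412 higher and 825 lower at an unadjusted p under 0.05, and 0 by DESeq2) and 1 in females. By the sign of the estimate, 8 of the 10 were lower and 2 (Myh7 and Nppa) higher after hyperoxia in each sex. Their median log2 fold change was -0.22 in males and -0.42 in females, and the medians of all genes tested were -0.01 and 0.11. In females, every hyperoxia lung lay below every room air lung for 7 of the 10 genes, and for 6.42% of all genes tested. In males this held for 0 of 10 (3.89% of all genes) and over both sexes for 0 of 10 (0.12%). In whole-lung RNA, fewer muscle cells in the sampled tissue, for whatever reason, and less RNA per muscle cell cannot be told apart.

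**Figure D2:**
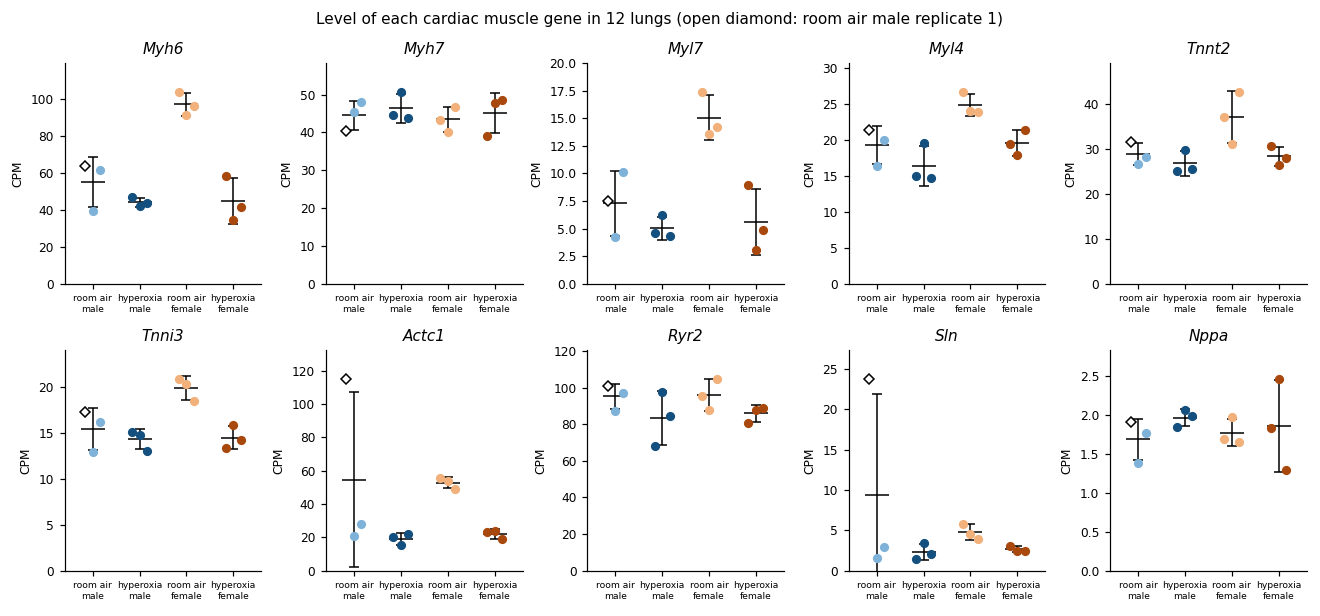
CPM of each gene in every lung, by group, with the group mean (line) and SD (bars, drawn down to 0 at most, n = 3). The 3 room air females have the highest Myh6 and Myl7 of all lungs, and room air male replicate 1 (open diamond) has the highest Actc1 (115 CPM) and Sln (23.7 CPM).

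Among the genes of the thick filament, the alpha heavy chain Myh6 had female groups that lay far apart. It stood at 104, 91.1 and 95.8 CPM in room air females and at 58.4, 34.5 and 41.4 CPM in hyperoxia females. In males it stood at 63.8, 39.5 and 61.2 CPM in room air and at 46.7, 41.9 and 43.6 CPM after hyperoxia. The room air females were thus above all 9 other lungs, and the other groups overlapped. The group means were 96.9 ± 6.35 CPM in room air females, 54.8 ± 13.4 CPM in room air males, 44.8 ± 12.3 CPM in hyperoxia females and 44.1 ± 2.46 CPM in hyperoxia males (SD, n = 3). In females its log2 fold change was -1.11 ± 0.20 (SE), with an unadjusted p of 8.17e-06 and an edgeR adjusted p of 0.0881. It was -0.31 ± 0.20 in males (edgeR adjusted p = 1.00, and -0.19 without room air male replicate 1) and -0.71 ± 0.14 over both sexes (edgeR adjusted p = 0.0555). With DESeq2 the adjusted p was 2.76e-04 in females and 0.00114 over both sexes, and with 1 RUVr factor the edgeR adjusted p in females was 0.0171. After subtraction of background the estimate in females was -1.11 (edgeR adjusted p = 0.384).

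Myl7, the regulatory light chain of atrial myosin, ordered the groups like Myh6. It stood at 17.4, 13.5 and 14.2 CPM in room air females and at 8.92, 3.06 and 4.90 CPM in hyperoxia females. In males it stood at 7.47, 4.26 and 10.1 CPM in room air and at 4.58, 6.20 and 4.28 CPM after hyperoxia. Here too the room air females were above every other lung, and in males the groups overlapped. The lowest value rested on 31 counts. Its log2 fold change was -1.41 ± 0.28 (SE) in females (edgeR adjusted p = 0.0908), -0.56 ± 0.29 in males (edgeR adjusted p = 1.00) and -0.98 ± 0.20 over both sexes (edgeR adjusted p = 0.0644). DESeq2 gave adjusted p values of 0.00964 in females and 0.00833 over both sexes. In males the estimate was -0.24 without room air male replicate 5, and with any 1 lung left out it ran from -0.82 to -0.24, and that of Myh6 from -0.49 to -0.19.

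The beta heavy chain Myh7, which slow skeletal fibres also use, was nearly level. Its values spanned 40.2 to 46.8 CPM in room air females, 38.9 to 48.6 CPM in hyperoxia females, 40.3 to 47.9 CPM in room air males and 43.7 to 50.7 CPM in hyperoxia males. The log2 fold change in females was 0.06, with an interval of 2 SE from -0.27 to 0.38, and in males 0.06, from -0.26 to 0.38 (-0.01 without room air male replicate 1). Part of the sequence of the heavy chains is the same, and 20.2% of the 50-base windows of Myh6 transcripts also occurred in Myh7. How reads that fit more than 1 gene were counted is not given in the sources used here.

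The atrial essential light chain Myl4 stood at 26.7, 24.05 and 23.9 CPM in room air females and at 19.4, 17.9 and 21.4 CPM in hyperoxia females. The female groups did not overlap, but the log2 fold change of -0.35 ± 0.15 (SE) did not pass the test (edgeR adjusted p = 0.371). In males Myl4 spanned 16.3 to 21.4 CPM in room air and 14.7 to 19.6 CPM after hyperoxia. Its log2 fold change there was -0.24 ± 0.15 (SE), and -0.15 without room air male replicate 1. Its estimated background share ran from 14.0% to 38.9% of its counts.

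Within a lung, the ratio of Myh6 to Myh7 per kilobase of exon does not depend on the scaling of libraries. This ratio was 3.07, 2.90 and 2.62 in room air females and 1.92, 0.924 and 1.09 in hyperoxia females. In room air males it was 2.03, 1.116 and 1.64, and in hyperoxia males 1.34, 1.06 and 1.28. The ratio of Myl7 to Myl2, the light chain of ventricular muscle, was 6.16, 4.60 and 5.26 in room air females and 3.09, 1.30 and 1.78 in hyperoxia females. By both ratios the room air females were the 3 highest of the 12 lungs. The ratios were computed after the levels had been seen and are given without a test.

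**Figure D3:**
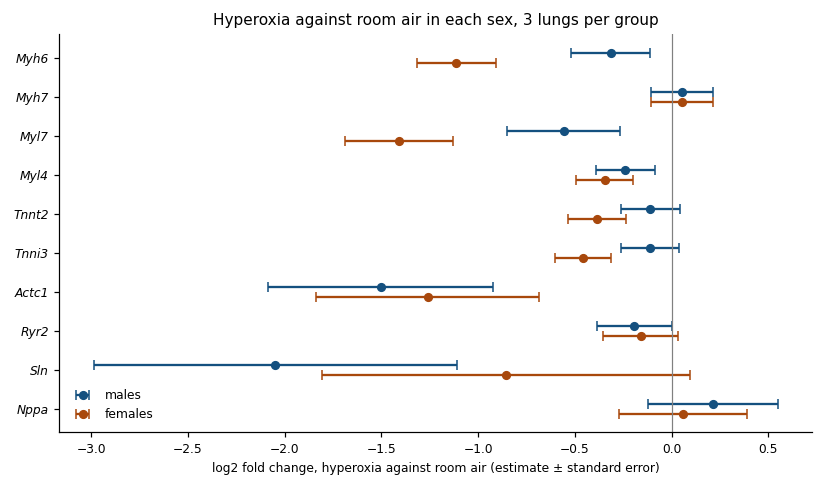
Log2 fold change of hyperoxia against room air in males and females for each gene, as estimate and standard error, with 3 lungs per group. The estimates for Myl7 and Myh6 in females (-1.41 and -1.11) lie far from 0 relative to their errors, while those for Sln and Actc1 in males (-2.05 and -1.50) have wide errors.

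Among the genes of the thin filament, cardiac actin Actc1 had the widest range. It stood at 55.6, 53.7 and 49.1 CPM in room air females and at 23.1, 24.2 and 18.9 CPM in hyperoxia females. In room air males it stood at 115, 20.7 and 28.3 CPM, with the highest value in replicate 1, and in hyperoxia males at 20.01, 15.3 and 22.3 CPM. The female groups were well apart, while all male lungs but replicate 1 lay near the hyperoxia females. The log2 fold change was -1.26 ± 0.58 (SE) in females (edgeR adjusted p = 0.405) and -1.38 ± 0.41 over both sexes (edgeR adjusted p = 0.927). All 4 groups share an estimate of the spread, so replicate 1 of the room air males also enters the test in females. Without that lung Actc1 passed the call in females, with a log2 fold change of -1.26 and an edgeR adjusted p of 0.00115, and over both sexes, with -0.80 and 0.00401. In males the log2 fold change was then -0.34 (edgeR adjusted p = 1.00), against -1.50 with all lungs. Actc1 shared no 50-base window with the skeletal and smooth muscle actins Acta1, Acta2 and Actg2.

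The cardiac troponins showed smaller differences. Tnnt2, the subunit that binds tropomyosin, stood at 37.2, 31.2 and 42.7 CPM in room air females and at 30.6, 26.4 and 27.8 CPM in hyperoxia females, and the closest lungs were less than 1 CPM apart. Tnni3, the inhibitory subunit, stood at 20.9, 20.3 and 18.4 CPM in room air females and at 13.4, 15.9 and 14.2 CPM in hyperoxia females, and the groups were separate. The log2 fold change in females was -0.39 ± 0.15 (SE) for Tnnt2 (edgeR adjusted p = 0.357) and -0.46 ± 0.15 for Tnni3 (edgeR adjusted p = 0.339). In males both were -0.11, with standard errors of 0.15, and without room air male replicate 1 they were -0.04 for Tnnt2 and -0.02 for Tnni3. With 1 RUVr factor the adjusted p in females was 0.00247 for Tnnt2 and 0.00388 for Tnni3 (edgeR), at log2 fold changes of -0.37 and -0.46, which are under the fold change of 1.5 that the call asks for. With the replicate block Tnnt2 had -0.21 (edgeR adjusted p = 0.565). Tnnt2 had an estimated background share of 18.04% to 41.4% of its counts and Tnni3 of 7.37% to 21.6%. Above background the female group means of Tnnt2 were 29.6 and 18.03 CPM, and the fitted estimate after subtraction was -0.50 (edgeR adjusted p = 0.651). Tnni3 shares 4.17% of its exon bases with Dnaaf3 on the same strand.

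Of the genes of calcium handling, Ryr2 had the most counts of the 10 in most lungs. It spanned 87.5 to 105 CPM in room air females, 80.7 to 88.8 CPM in hyperoxia females, 87.2 to 101 CPM in room air males and 67.9 to 97.7 CPM in hyperoxia males. In CPM the groups overlapped in each sex. The log2 fold change was -0.16 in females, with an interval of 2 SE from -0.54 to 0.22, and -0.19 in males, from -0.58 to 0.19. Its background share was 23.9% to 48.3%. With the estimated background of each lung taken off, Ryr2 stood at 66.7 to 69.9 CPM in room air females and at 45.9 to 49.2 CPM in hyperoxia females. In males it then stood at 54.4 to 61.2 CPM in room air and at 43.8 to 53.4 CPM after hyperoxia. The groups of each sex then did not overlap, in males by a narrow margin. How many of all genes separate after such a subtraction was not computed, and the library sizes were those from before it. In fits of the female comparison the estimate was -0.28 after background subtraction (edgeR adjusted p = 0.689), -0.38 with the receptor share as a covariate (edgeR adjusted p = 0.216) and -0.05 with the replicate block (edgeR adjusted p = 0.9405).

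Sln, the inhibitor of the calcium pump, stood at 5.82, 4.58 and 3.95 CPM in room air females and at 3.06, 2.47 and 2.41 CPM in hyperoxia females. In room air males it stood at 23.7, 1.57 and 2.89 CPM and in hyperoxia males at 1.48, 3.48 and 2.07 CPM. Apart from replicate 1 of the room air males, its estimated background share was 20.2% to 96.0%, and these values rest on 18 to 86 counts. Its log2 fold change was -0.86 ± 0.95 (SE) in females (edgeR adjusted p = 0.674). In males it was -2.05 with all lungs and 0.03 without replicate 1, and over both sexes -1.45 and -0.42. After background subtraction, with all lungs, the estimate was -1.72 in females (edgeR adjusted p = 0.759), -3.61 in males and -2.67 over both sexes, and the group means above background were 3.52 CPM in room air females and 0.899 CPM in hyperoxia females.

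Nppa, the atrial hormone, had 15 to 31 counts per lung. Its values were 1.66 to 1.97 CPM in room air females, 1.29 to 2.47 CPM in hyperoxia females, 1.39 to 1.91 CPM in room air males and 1.85 to 2.07 CPM in hyperoxia males. Its log2 fold change was 0.06 in females, with an interval of 2 SE from -0.61 to 0.72, and 0.21 in males, from -0.45 to 0.88. After background subtraction it was -0.16 in females and 0.61 in males. The background share ran from 31.8% to 99.8%, and 61.5% of its exon bases are shared with Gm13054, an antisense gene. Whether the counting used the strand is not given in the sources used here, so reads of Nppa and of Gm13054 cannot be told apart.

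The second comparison was between the sexes. With both exposures averaged, edgeR called 0 of the 10 genes between females and males, and 1.22% of all genes tested (559). At an unadjusted p under 0.05 the count was 4 of 10 (6.88% of all genes), and DESeq2 called 0 of the 10 and 791 of all genes. The log2 fold change of females against males was 0.42 ± 0.14 (SE) for Myh6 (edgeR adjusted p = 0.246), 0.62 ± 0.20 for Myl7 (edgeR adjusted p = 0.205) and 0.32 ± 0.11 for Myl4 (edgeR adjusted p = 0.237). Without room air male replicate 1, 7 of 10 had an unadjusted p under 0.05 (2579 of all genes, against 3153 with it) and Actc1 was called, with 0.65 and an edgeR adjusted p of 0.00301. Without hyperoxia female replicate 2, the estimate for Myl7 was 0.37 (edgeR adjusted p = 0.933).

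The interaction term asked whether males and females responded differently to hyperoxia. It was called for 0 of the 10 genes and for 0% of all genes tested. At an unadjusted p under 0.05 the count was 2 of 10 and 8.46% of all genes (2775 higher and 1100 lower), with 0 called by DESeq2. Leaving out room air male replicate 1 gave 3 of 10, and 2101 of all genes against 3875 with it, and still 0 of 10 called. By sign, 9 of the 10 estimates were then lower (median -0.39), against 7 with all lungs (median -0.13). The interaction, as the female minus the male log2 fold change, was -0.80 ± 0.29 (SE) for Myh6 and -0.85 ± 0.40 for Myl7, each with an edgeR adjusted p of 0.578. A difference between the sexes in the response of these genes was thus not shown.

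Depth, background and genes of other cell types were also set beside the female comparison. Room air females had 12497449 to 16741694 counts per lung and hyperoxia females 10255870 to 11584337. Receptor genes took 0.516%, 0.410% and 0.739% of the counts in room air females and 0.669%, 0.781% and 0.847% in hyperoxia females. The groups were apart in depth and overlapped in the receptor share. The 8 genes of lung epithelium and endothelium were lower after hyperoxia in females by the sign of their estimates in 8 of 8, with a median log2 fold change of -0.54. Of them 0 were called, 3 of 8 had an unadjusted p under 0.05 (12.6% of all genes), and DESeq2 called 0. Sftpc (surfactant protein C of alveolar type 2 cells) had -0.57 ± 0.41 and Scgb1a1 (club cells) -0.66 ± 0.44 (SE). The part of these in the values of the cardiac genes was not tested. In a fit that also held the receptor share, the female estimates were -1.11 for Myh6 and -1.48 for Myl7, and neither passed the test (edgeR adjusted p = 0.604 and 0.767).

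Skeletal muscle transcripts were high together with Actc1 and Sln in 1 lung. Room air male replicate 1 had the highest value of the 12 lungs for both genes, and its Myl3 (a light chain of ventricular and slow skeletal muscle) was at 64.3 CPM, against 8.08 to 15.2 CPM elsewhere. For Myh6 and Myl7 the same lung lay at 63.8 and 7.47 CPM, below the room air females. Nppa, Ryr2, Tnnt2, Tnni3, Myl4 and Myh7 stayed in this lung within the range of the other 11. Without the lung, 8 of the 10 estimates were lower and 2 higher in females and over both sexes. In males the median log2 fold change of the 10 genes was -0.22 with it and -0.09 without it.

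**Figure D4:**
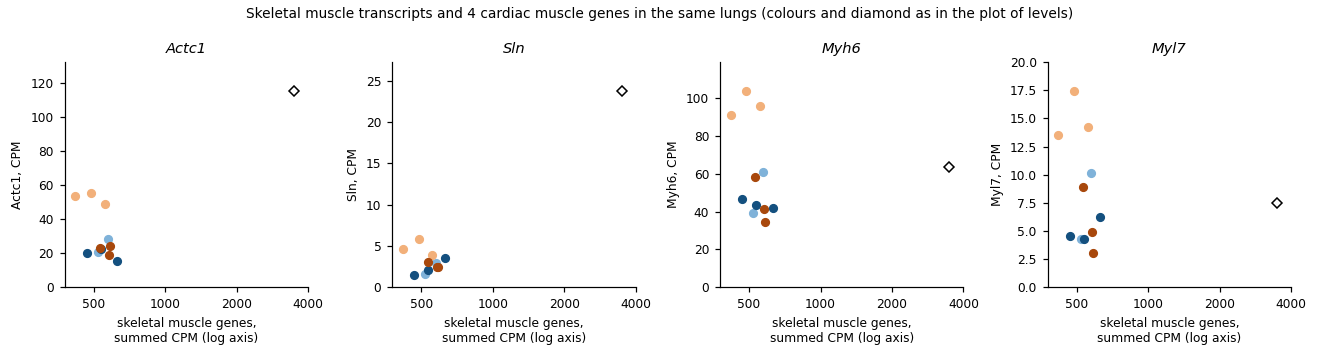
CPM of Actc1, Sln, Myh6 and Myl7 against the summed CPM of 24 skeletal muscle genes (log axis) in the same 12 lungs. Room air male replicate 1 (open diamond, 3489 CPM on the horizontal axis) is far to the right and high for Actc1 and Sln, and within the range of the other lungs for Myh6 and Myl7.

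Ventricular markers gave no such separation of groups. Myl2, the ventricular regulatory light chain, spanned 7.06 to 11.97 CPM over the 12 lungs and had group means of 9.34 ± 0.40 CPM in room air females and 8.81 ± 0.91 CPM in hyperoxia females (SD, n = 3). Its log2 fold change in females was -0.08 ± 0.19 (SE). Of the 5 ventricular genes (Myl2, Myl3, Nppb, Irx4 and Hey2) 0 were called in any comparison by edgeR or DESeq2.

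How closely the members varied together was described with Myh6 as the reference. Because the room air females stood apart, the relation was computed over the other 9 lungs, on log2 CPM. Myl7 followed Myh6, with Pearson's r = 0.897 (exact permutation p = 0.00159, adjusted over 9 genes 0.0143) and Spearman's rho = 0.817 (exact permutation p = 0.0108, adjusted 0.0969). Without the 2 lungs farthest from the median of Myh6, r was 0.870. For Actc1, r was 0.621 (exact permutation p = 0.0337, adjusted 0.151) and rho 0.500 (exact permutation p = 0.178, adjusted 0.345), and r was 0.06 without the 2 farthest lungs, so this relation rests on those lungs. None of the other 7 had an adjusted p under 0.05 (r from -0.591 for Myh7 to 0.598 for Tnnt2). The lungs share the scaling to library size, and they come from 3 of the 4 groups.

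The genes most like the 10 over the 12 lungs were ranked by Pearson's r of their log2 CPM with the mean of the members' standardised log2 CPM. The first was Mybphl, a myosin-binding protein of atrial muscle, with r = 0.887 (0.875 without room air male replicate 1). Gm5616 (0.873), Cpe (0.856), Nsmce1 (0.834), Gm20026 (0.818), Gm26838 (0.814), Gm13687 (0.812), Mcm2 (0.804), Khdrbs3 (0.803) and Gm47088 (0.801) followed. Among the members themselves r was highest for Myl4 (0.888), Tnni3 (0.882) and Tnnt2 (0.865) and lowest for Nppa (0.112) and Myh7 (-0.163), and the mean contains each of them. Without room air male replicate 1 it was highest for Sln (0.934), Myl4 (0.903) and Tnni3 (0.888). Mybphl stood at 9.95, 6.93 and 8.22 CPM in room air females and at 6.39, 7.40 and 6.44 CPM in hyperoxia females, which overlapped. Its log2 fold change in females was -0.31 (edgeR adjusted p = 0.460).

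**Figure D5:**
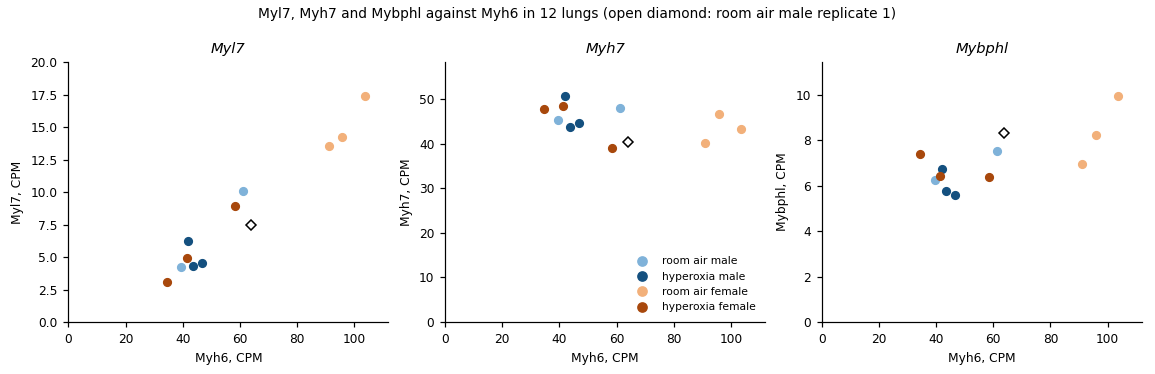
CPM of Myl7, Myh7 and Mybphl against CPM of Myh6 in the 12 lungs, coloured by group. Myl7, between 3.06 and 17.4 CPM, is higher in the lungs where Myh6 is higher, Myh7 stays between 38.9 and 50.7 CPM, and Mybphl overlaps between groups.

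Further genes of cardiac muscle were taken from lists by function. Of 18 further sarcomere and Z-disc genes, 0 were called after hyperoxia in females, and 11 estimates were lower and 7 higher (median log2 fold change -0.06). In males 0 were called, with 15 lower and 3 higher (median -0.50), and with 9 lower and 9 higher (median -0.01) without room air male replicate 1. The giant protein titin (Ttn) was at 3950 CPM in room air male replicate 1 and at 233 to 462 CPM in the other 11 lungs, with a log2 fold change of -0.48 ± 0.84 (SE) in females. Nebl, a Z-disc protein, had -0.41 ± 0.27. At an unadjusted p under 0.05 there were 0 in females (12.6% of all genes) and 5 in males (2.7%), or 1 and 0 without that lung. DESeq2 called 0 in either sex with all lungs.

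Of 14 genes of excitation-contraction coupling and conduction, 0 were called in females, and 9 were lower and 5 higher by their estimates (median -0.10). The calcium pump Atp2a2, which smooth muscle and other cells also use, had a log2 fold change of -0.73 ± 0.25 (SE) in females (edgeR adjusted p = 0.348) and the calcium channel Cacna1c had -0.21 ± 0.23. At an unadjusted p under 0.05 there were 2 of 14 in females (12.6% of all genes), and DESeq2 called 0. Of 10 cardiac transcription factors 0 were called, and 4 were lower and 6 higher in females (median 0.14). Tbx5, which lung mesenchyme also uses, had -0.29 ± 0.22 and Mef2c had -0.20 ± 0.20. None of the 10 had an unadjusted p under 0.05 in females, and DESeq2 called 0. The cardiac regulator Nkx2-5 stood at 5.62 to 8.38 CPM over all lungs, with a median background share of 29.9% (it was named after its values were seen). Of 7 genes of cardiac muscle energy metabolism 0 were called, and 7 of 7 were lower in females (median -0.24). At an unadjusted p under 0.05 there was 1 in females (12.6% of all genes), or 2 without room air male replicate 1. DESeq2 called 0. Myoglobin (Mb) had -0.76 ± 0.65 and creatine kinase Ckm had -0.20 ± 1.10.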

How the data were processed

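Whole-lung RNA-Seq of 12 miR-30a-/- mice at PND 21 was analysed, 3 lungs per sex and exposure. The authors used Trim Galore for trimming, STAR for alignment to mm10 and featureCounts for the raw counts per gene that they deposited (versions not given in the sources used here). The labels and the study's methods name different stranded library kits. 0 columns were left without a sample.

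Counts were fitted with edgeR 4.0.16 (R 4.3.3; robust quasi-likelihood, 4 groups, upper-quartile normalization, filterByExpr), with Benjamini-Hochberg adjustment over 45828 genes. The biological coefficient of variation was 0.177. Genes passed the call with a fold change over 1.5 at an adjusted p under 0.05. CPM used normalized library sizes, and log2 CPM a prior count of 2. At 8763033 to 16741694 counts per lung, the floor of 3 counts lay at 0.191 to 0.327 CPM (counting error only). Background was the median reads per kilobase on 1490 receptor genes times exon length. CPM above background kept the library sizes from before the subtraction, while the fit after subtraction computed its own. The fit was also run on simulated counts, with an outcome that is not given here. DESeq2 1.42.0, RUVr with 1 factor, TMM, other filters, background subtraction, the replicate block and each lung left out were alternatives. The study's RUVr (its number of factors is not stated) and ComBat-seq steps were not part of the main fit, and WT lungs were not analysed here.

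The 10 genes and all lists were chosen with earlier results of these data known. Outside them, the text names the 2 genes of highest mean CPM of each list, Myl2, Myl3, Acta1, Mylpf, label checks, and the 10 genes most like the members among those with a mean of at least 1 CPM, and others only where it says so.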

Additional observations from a re-analysis of the deposited data

How the results depend on the processing

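The limits are the number of lungs, low counts and background. There were 3 lungs per group, Sln and Nppa were near the receptor density in most lungs, and room air male replicate 1 sets the values of Actc1 and Sln in males. The p values of the fits set each difference against the spread between these animals, estimated over all 4 groups.

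Of 400 estimates of the 10 genes under 8 settings with all lungs, 367 had the same sign and the same side of the call, 6 passed the call and 27 changed sign. Of 600 with a lung left out, 555 had the same sign and side, 18 passed the call and 27 changed sign. The cause was not tested.

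Over both sexes 19 genes were called, and 86 with 1 RUVr factor, 40 with DESeq2, 9 after background subtraction and 4 with the replicate block, and 3 to 37 with a lung left out. In males 0 were called, and 18 with RUVr, 6 with the receptor share as a covariate (chosen after seeing the data) and 0 to 1 with a lung left out. In females 1 was called, and 0 with TMM, 1897 with RUVr, 44 with DESeq2, 8 without a filter, 0 after background subtraction, 0 with the replicate block, 22 with the receptor share and 0 to 206 with a lung left out. The interaction had 0, and 2151 with RUVr. Between the sexes 559 were called, and 1006 with RUVr, 1004 without a filter, 266 with at least 10 counts in every library, 130 with the replicate block, 977 with the receptor share and 476 to 687 with a lung left out.

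Of the 10 genes, 0 were called over both sexes, and 2 with DESeq2, 1 with the replicate block (Actc1, -1.47, edgeR adjusted p = 0.00259) and 0 to 2 with a lung left out. In females it was 1 with RUVr, 2 with DESeq2 and 0 to 2 with a lung left out, and between the sexes 0 to 1 with a lung left out. Without room air male replicate 4, Myh6 and Myl7 passed over both sexes (edgeR adjusted p = 0.0268 and 0.0211) and in females (both 0.0467), and without hyperoxia female replicate 2 likewise (0.0297 and 0.00843, and 0.0372 and 0.00905). Myh6 also passed over both sexes without room air female replicate 6 (0.0372) or hyperoxia male replicate 1 (0.0280). In females it also passed without room air male replicate 1 (0.0485), room air female replicate 6 (0.0233), hyperoxia male replicate 1 (0.0211) or hyperoxia male replicate 2 (0.00685). Between the sexes Myl7 passed without hyperoxia female replicate 4 (0.0400).

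The block took the animal numbers of the labels. Same-numbered lungs did not deviate together (r = -0.303 for number 1 in males, and -0.166 for number 5 and 0.0596 for number 2 in females). Few numbers recur within a sex, and number 1 in males includes the room air lung with high skeletal muscle transcripts. These correlations therefore cannot decide whether the numbers pair the lungs.

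These signs changed. In females Myh7 was -0.039 with DESeq2 and -0.047 with the receptor share, and Nppa was -0.044 with DESeq2, -0.16 after background subtraction, -0.060 with the block and -0.19 to 0.27 with a lung left out. In males, with a lung left out, Myh7 ran from -0.0074 to 0.11 and Sln from -2.54 to 0.025. For the interaction Myh7 was 0.0033 with RUVr, 0.067 with at least 10 counts, 0.11 after background subtraction and -0.059 to 0.087 with a lung left out. Myl4 was 0.00095 after background subtraction, 0.012 with the block and -0.19 to 0.020 with a lung left out, and Tnnt2 was 0.023 with the block. Actc1 was -0.17 with the receptor share and -0.92 to 0.62 with a lung left out. Ryr2 was -0.065 with DESeq2, -0.013 without a filter, -0.0092 after background subtraction, -0.23 with the receptor share and -0.10 to 0.15 with a lung left out. With a lung left out Sln ran from -0.88 to 1.68 and Nppa from -0.41 to 0.054. Between the sexes Myh7 was 0.0036 with DESeq2, 0.00013 with the receptor share and -0.067 to 0.011 with a lung left out, and Actc1 was -0.031 after background subtraction and -0.12 to 0.65 with a lung left out. Sln was 0.67 with the block, 0.092 with the receptor share and -0.61 to 0.66 with a lung left out, and Ryr2 was -0.062 with the block and -0.031 to 0.092 with a lung left out. Nppa was 0.015 with TMM, 0.039 with DESeq2, 0.0065 without a filter, 0.051 after background subtraction, 0.076 with the block and -0.12 to 0.10 with a lung left out.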

Other observations

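Smooth muscle genes, which share the vessel wall with the venous myocardium, were lower in hyperoxia females by the sign of their estimates in 7 of 8, with a median log2 fold change of -0.19. Of them 0 were called by edgeR or DESeq2, and 2 had an unadjusted p under 0.05 (12.6% of all genes). Acta2 (smooth muscle actin) had -0.50 ± 0.23 (SE, edgeR adjusted p = 0.385) and the smooth muscle heavy chain Myh11 had -0.20 ± 0.19 (edgeR adjusted p = 0.609). In males 7 of 8 were lower, with a median of -0.15, and without room air male replicate 1 it was 4 of 8, with a median of -1.1e-04.

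Of 5 genes of the mesothelium, the cells that line the lung surface, 4 were lower in hyperoxia females (median log2 fold change -0.34). By either tool 0 were called, and 1 had an unadjusted p under 0.05 (12.6% of all genes). Msln had -0.34 ± 0.20 and Upk1b -0.16 ± 0.20 (SE). Of 5 brown fat genes 4 were higher in hyperoxia females and 0 were called by either tool (median 0.28, with 0 at an unadjusted p under 0.05). Plin1, which coats lipid droplets, had 0.18 ± 0.17 and the fatty acid binding protein Fabp4 had -0.11 ± 0.19.

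Of the 24 skeletal muscle genes, 18 were higher and 6 lower in hyperoxia females (median log2 fold change 0.24), and 20 were lower in males (median -0.70), where room air male replicate 1 is among the controls. Without that lung 14 were lower and 10 higher in males (median -0.01). By edgeR and by DESeq2 0 were called in either sex. At an unadjusted p under 0.05 there was 1 in females (12.6% of all genes) and 8 in males (2.7%), or 4 and 0 without that lung. The long genes Neb and Ryr1, of the thin filament and of calcium release, had 0.33 ± 0.72 and 0.19 ± 0.22 (SE) in females. In males they had -1.64 ± 0.73 and -0.27 ± 0.21, or 0.0036 ± 0.24 and -0.02 ± 0.23 without that lung. Of the ventricular genes in females, Myl3 had -0.04 ± 0.72 and Hey2, a transcription factor, -0.02 ± 0.16.

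Cpe, a carboxypeptidase that processes peptide hormones, was also among the 10 genes most like the members. It stood at 21.3, 26.8 and 22.3 CPM in room air females and at 15.9, 18.5 and 15.0 CPM in hyperoxia females, which did not overlap. In females, 6.42% of all genes tested were separated in this direction. Cpe was picked for its likeness to the members in these same lungs, so it is no separate evidence. Its log2 fold change in females was -0.51 (edgeR adjusted p = 0.339).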
